A study of Mus musculus with 8 samples.

Results

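Ribosomal protein genes and their pseudogene copies were followed through maps of N6-methyladenosine (m6A) in mouse cells. Members were all gene names in the site lists of the TBLC libraries that start with Rpl or Rps followed by a digit, a or p, with or without the suffix -ps, leaving out the Rps6k kinases. The rule took 60 of 10609 named genes. They were 32 core ribosomal protein genes, 7 paralogs (Rpl10l, Rpl7l1, Rpl39l, Rpl36al, Rpl22l1, Rps27l and Rps4l), 20 copies with the suffix -ps, and Rps19bp1, which encodes a protein that binds Rps19 and is not a ribosomal protein itself. RefSeq's names table (GRCm38.p6, used for names only) held all 60, of which 39 were protein-coding, 20 were pseudogenes and Rps4l was a transcribed pseudogene.

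The series holds 8 libraries in 4 groups of 2. TBLC grown in MYCP medium were treated with siNC, the control siRNA, or with siVirma, the siRNA against Virma. EPSC with a dCas13b-FTO targeting system carried sgCtrl or sgGata6, and their deposited values are pooled to 1 value per group. m6A was measured by GLORI, in which unmethylated adenosine is converted and read as G while methylated adenosine is still read as A. The level of a site is a fraction, its A reads divided by its A+G reads. Nothing in the labels ties the 2 libraries of a group to separate cultures, so the p-values speak of these libraries and their spread could be technical.

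Ribosomal proteins are the protein part of the large (Rpl) and small (Rps) ribosomal subunits, and their mRNAs are among the shortest and most abundant of a growing cell. Such mRNAs are often reverse transcribed and inserted elsewhere in the genome, which leaves intronless copies known as processed pseudogenes. m6A is placed on mRNA by the Mettl3 and Mettl14 writer complex, of which Virma is the large scaffold subunit.

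The TBLC lists held 34739 to 66350 called sites and 2655963 to 4764955 A+G reads over them, with fewer of both in siVirma. Virma itself had a deposited gene coverage of 40.3 and 38.2 in siNC against 24.0 and 22.8 in siVirma, a 0.531-fold change after centring (limma adjusted p = 0.000403). Of 10 naive pluripotency markers all 10 had a listed site, while Dux, Duxf3, Pramef25 and Tcstv1 of the 12 markers of the 2-cell stage program and Foxa2 of the 6 primitive endoderm markers had none. A gene appears in these lists only through a called site, so absence from a list is not absence of the RNA.

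Ribosomal protein genes carried few m6A sites each. The members had 143 distinct sites, 73 in core genes, 37 in paralogs, 25 in copies and 8 in Rps19bp1. The median was 2 sites per member gene, 2 for core genes, 4 for paralogs and 1 for copies, against 5 over all named genes. Of 91 protein-coding symbols that follow the naming rule 39 had a listed site, or 42.9%, and the share over all 21896 protein-coding symbols was 41.6%. Among those with no listed site were the stalk proteins Rplp0, Rplp1 and Rplp2, the small subunit proteins Rps2, Rps4x, Rps6 and Rps12, and Rpl10, Rpl19, Rpl36a and Rpl7a. Of 321 symbols with -ps under the rule 20 had a site.

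The sites of the copies were called again in the other siNC library in smaller shares than all sites, a difference given here without a test. Of 25 copy sites 14 stood in 1 list only, as did 30 of 73 core sites. Of the copy sites called in siNC 1, 42.9% were also called in siNC 2, against 67.8% for core genes, 90% for paralogs and 74.7% of all sites. In the other direction 50.0% of the copy sites of siNC 2 were called in siNC 1, against 80% of all sites. These shares rest on 6 copy sites called in both, of 14 in siNC 1 and 12 in siNC 2. Median levels in siNC 1 and siNC 2 were 0.153 and 0.185 for copy sites and 0.192 and 0.228 for core sites. Over all sites they were 0.371 and 0.368, and the part of low levels in the repeat calls was not tested. Copies with a single call included Rpl22-ps1 on chromosome X with a level of 0.107 from 75 A+G reads in siNC 2, and Rpl7a-ps2 with a level of 0.625 from 16 reads in siVirma 1.

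Fewer member sites were called after Virma knockdown, and the core genes lost the largest share of the 3 main classes. Over all members 109 and 102 sites were called in siNC and 52 and 53 in siVirma, in 47, 40, 29 and 31 genes. The groups did not overlap, and the mean fell from 105.5 ± 4.95 to 52.5 ± 0.707 (SD, n = 2), a change of -50.2% beside -40.9% for all called sites. With 2 libraries against 2 the smallest p that the two-sided exact permutation test allows is 0.333, and it gave 0.333 here.

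In core genes the number of sites was 59 and 49 in siNC against 15 and 22 in siVirma, a change of -65.7%. In paralogs it was 30 and 34 against 20 and 19, a change of -39.1%. Both classes had lower counts in each siVirma library than in either siNC library (exact permutation p = 0.333 for each). In copies the counts were 14 and 12 in siNC and 13 and 8 in siVirma, which overlapped. The mean of the copies was 13 ± 1.41 in siNC and 10.5 ± 3.54 in siVirma (SD, n = 2), a change of -19.2% (exact permutation p = 0.667). Without siVirma replicate 2 the change of the copies was 0%.

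**Figure D1:**
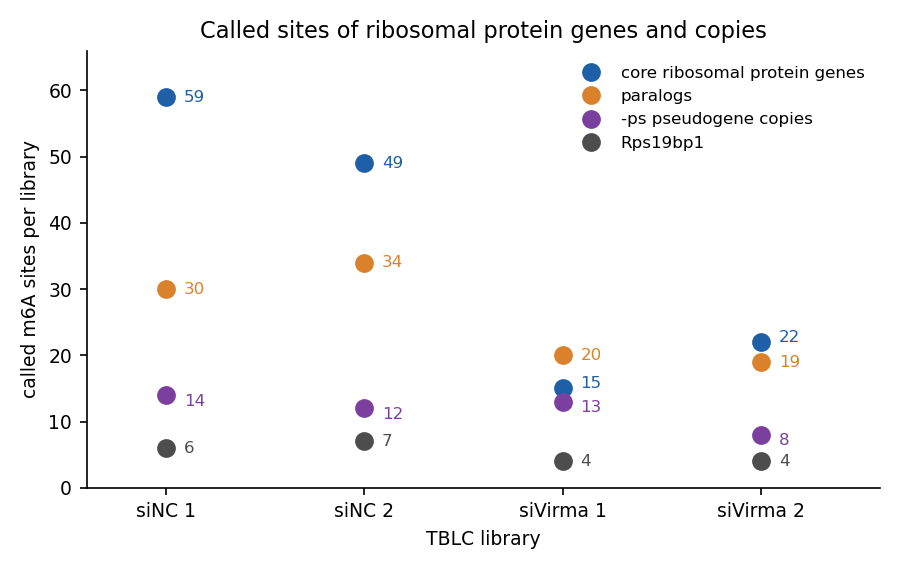
Called m6A sites (y axis, number of sites) in each of the 4 TBLC libraries (x axis), with 1 point per library for core ribosomal protein genes, paralogs, -ps pseudogene copies and Rps19bp1. Core genes drop from 59 and 49 sites in siNC to 15 and 22 in siVirma, while the copies lie at 14 and 12 against 13 and 8.

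The same losses appear among sites called in both siNC libraries. Of 78 such member sites 36 were called in both siVirma libraries, or 46.2%, and 30 in neither, or 38.5%. Over all 49554 such sites the shares were 47.1% and 33.1%. Core genes kept 11 of 40 in both siVirma libraries (27.5%) and had 22 in neither (55.0%). Paralogs kept 16 of 27, and copies 5 of 6. The lists hold no level under 0.1. The median siNC level of these sites was 0.248 in core genes, 0.278 in copies, 0.350 in paralogs and 0.410 over all sites, and the part of the starting level in the losses was not tested.

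Rps3, a small subunit protein that lines the path where mRNA enters the ribosome, showed this loss along 1 transcript. It had 8 sites on the minus strand of chromosome 7 (mm39), 8 of them called in siNC 1, 7 in siNC 2, and 2 in each siVirma library. The 6 that were lost had levels between 0.122 and 0.266. The sites that stayed were at 99128117 and 99132862, with levels of 0.317 and 0.377 for the first in siNC and 0.183 and 0.187 in siVirma. Rpl22, an RNA-binding protein of the large subunit, went from 5 and 6 called sites in siNC to 2 and 2. Rpl41, the smallest ribosomal protein, lost the call of its site at 128384056 on chromosome 10 (levels of 0.349 and 0.325 from 1263 and 997 reads). Its site at 128384184 stayed called, with 0.107 and 0.114 in siVirma, just over the calling minimum of 0.1. The lists give no siVirma level for the first site, so whether the sites fell by unlike amounts cannot be read.

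Rpl7l1 had the most sites, 12 on the minus strand of chromosome 17 within 1567 nt. This paralog of Rpl7 is known from the assembly of the large subunit. Its lists held 9 and 12 sites in siNC and 7 and 6 in siVirma. Rps19bp1 had 6 and 7 against 4 and 4, Rpl10l, an autosomal paralog of the X-linked Rpl10, had 8 and 7 against 4 and 3, and Rps4l, a relative of Rps4x, had 5 and 6 against 4 and 4.

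The called member sites had lower median levels than all called sites, a difference given here without a test. The median level of the called member sites was 0.221 and 0.220 in siNC against 0.221 and 0.206 in siVirma. Over all called sites the medians were 0.371 and 0.368 in siNC and 0.276 and 0.279 in siVirma. Levels under 0.2 made up 45.9%, 49.0%, 44.2% and 47.2% of the member sites in siNC 1, siNC 2, siVirma 1 and siVirma 2. The same shares over all sites were 21.8%, 22.0%, 31.4% and 30.4%. Levels over 0.5 fell to fewer member sites in siVirma, with 17.4% and 18.6% in siNC and 9.62% and 9.43% in siVirma. The member sites were read more deeply, with median A+G reads of 71, 81.5, 82 and 72 in the same order, against 39 to 45 over all sites.

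Levels were compared site by site where all 4 TBLC lists held the site and each gave it 20 or more A+G reads, with edgeR's quasi-likelihood test on the A and G reads and Benjamini-Hochberg adjustment over all 20414 such sites. The lists hold no value for a site under the calling threshold, so sites that fell furthest are not in this test. Of the 143 member sites 36 qualified, in 19 genes, with 11 sites in core genes, 16 in paralogs, 5 in copies and 4 in Rps19bp1.

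At an adjusted p under 0.05, 27 of the 36 sites were lower in siVirma (75.0%, where 91.6% of all tested sites were lower), 2 were higher (0.147% of all tested sites were higher) and 7 passed in neither direction. By class the counts of lower, higher and neither were 8, 1 and 2 in core genes, 13, 0 and 3 in paralogs and 2, 1 and 2 in copies, and all 4 sites of Rps19bp1 were lower. In 31 of the 36 both siVirma levels lay below both siNC levels, as in 94.8% of all tested sites, and in 2 they lay above, as in 0.715%. The median site kept 45.7% of its siNC level (quartiles 38.5% to 79.0%), where the median over all tested sites was 45.1% (37.4% to 56.8%). More than 80% of the siNC level was kept at 9 of the 36 member sites (25%) and at 7.23% of all tested sites. The 9 included 66330484 of Rpl10l and 148257002 of Rps4l, with mean siNC levels of 0.956 and 0.987. Their log2 odds changes were -2.42 and -3.55, beside a median of -2.28 over all tested sites. The rest of the 9 had smaller falls on this scale, or rises. No listed level is under 0.1, so sites that start low cannot show a large fall. At siNC levels of 0.1 to 0.2 and 0.2 to 0.3 the median siVirma levels of all tested sites were 0.149 and 0.139. These ranges held 3 and 3 of the 36 member sites, and 238 and 1033 of all 20414 tested sites. The part of the starting level in these differences was not tested.

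**Figure D2:**
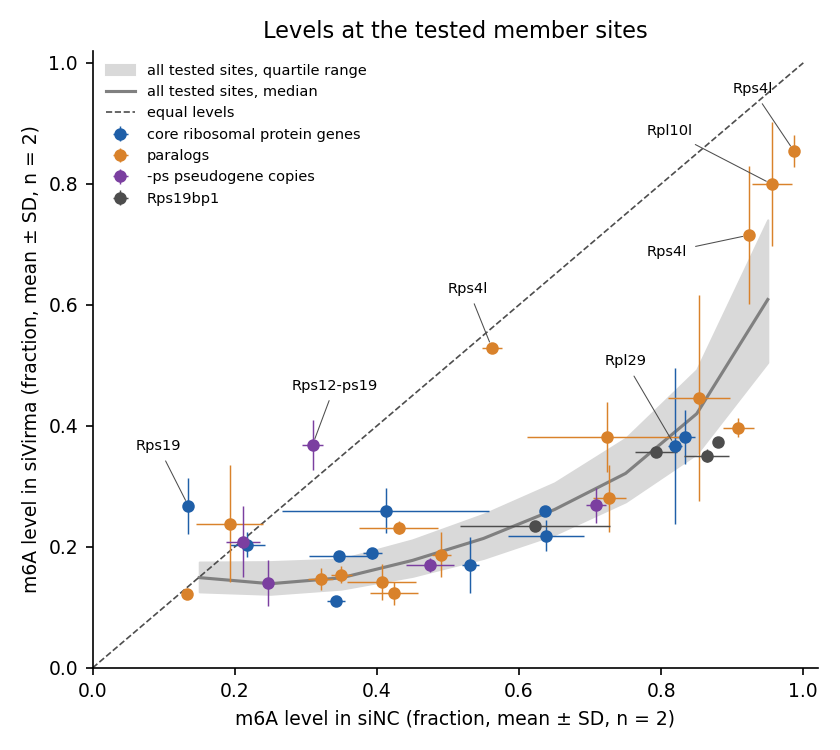
m6A level in siVirma (y axis, fraction) against siNC (x axis, fraction) at the 36 tested member sites, as mean ± SD of 2 libraries, coloured by class. The grey line and band give the median and quartiles of all tested sites, and the sites above the band include those of Rps19 and Rps12-ps19, the site of Rpl10l named in the plot and 3 of the 4 sites of Rps4l.

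Summed over the tested sites of a gene, 13 of 19 member genes were lower in siVirma (68.4%, where 93.8% of the 5642 genes tested were lower), 2 were higher (0.177% of all genes tested) and 4 passed in neither direction. The siVirma and siNC levels of a gene did not overlap in 15 lower and 2 higher members, against 95.4% and 0.567% of all genes tested. The median member gene kept 48.1% of its siNC level, and the median over all tested genes was 44.9%. Core genes were lower in 7 of 9 cases and paralogs in 4 of 5, while of the 4 copies with a tested site 1 was lower, 1 was higher and 2 passed in neither direction.

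Among the core genes of the large subunit 6 fell, and they kept 31.9% to 48.1% of their siNC level. Rpl22 had levels of 0.523 and 0.540 in siNC and 0.202 and 0.137 in siVirma, so it kept 31.9% (log2 odds change -2.41 ± 0.22 SE, edgeR adjusted p = 1.52e-13). Rpl41 had 0.334 and 0.351 against 0.107 and 0.114 and kept 32.4% (-2.06 ± 0.11 SE, edgeR adjusted p = 2.78e-21). Neither gene's groups overlapped, and both siVirma levels of Rpl41 lay close to the calling minimum of 0.1.

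Rpl13a, a large subunit protein also known for a role outside the ribosome in silencing inflammatory mRNAs, had 0.641 and 0.632 in siNC and 0.258 and 0.260 in siVirma from 530 to 722 reads. It kept 40.6% (log2 odds change -2.33 ± 0.12 SE, edgeR adjusted p = 1.17e-21). Its groups were far apart beside the small difference between replicates. Rpl14 kept 42.7%, with 0.782 and 0.743 against 0.313 and 0.338. Rpl15 kept 48.1%, with 0.403 and 0.384 against 0.196 and 0.183. Both belong to the large subunit, and all 4 of their siVirma levels were under the siNC levels of the same gene.

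Rpl29, a further large subunit protein, rested on 23 to 32 reads at its site at 106308680 on chromosome 9. Its levels were 0.826 and 0.812 in siNC and 0.276 and 0.458 in siVirma, and it kept 44.8% (edgeR adjusted p = 4.19e-06). The siVirma replicates differed from each other by more than the siNC replicates but stayed well below them. Rps3 kept 58.2%, with 0.297 and 0.351 against 0.189 and 0.187 (edgeR adjusted p = 6.25e-06). Of its sites the one at 99128117 fell and the one at 99132862 did not pass, with 0.2 and 0.235 in siNC and 0.218 and 0.189 in siVirma (edgeR adjusted p = 0.835).

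Rpl11, which with Rpl5 and 5S rRNA can bind Mdm2 and so act on p53, had 0.515 and 0.310 in siNC and 0.233 and 0.286 in siVirma from 28 to 42 reads. Its groups did not overlap but the siNC replicates stood far apart, and the change did not pass (kept 62.9%, edgeR adjusted p = 0.0902). The log2 odds change was -0.92 with all libraries, -0.35 without siNC replicate 1 (edgeR adjusted p = 0.593), -1.59 without siNC replicate 2 (0.0160) and -1.84 over 2 sites without siVirma replicate 1 (0.000110).

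Rps19, a small subunit protein known from inherited anaemia, was the core gene with a higher level after knockdown. Its site at 24584018 on chromosome 7 had levels of 0.132 and 0.137 in siNC and 0.3 and 0.235 in siVirma, from 53, 51, 40 and 34 reads. Both siVirma values were above both siNC values, and the log2 odds change was 1.24 ± 0.51 SE (edgeR adjusted p = 0.0259 for the gene). The call was lost without siNC replicate 1 (adjusted p = 0.0751), without siNC replicate 2 (0.0600) and without siVirma replicate 1 (0.191), and the site has too few reads for a minimum of 50. The deposited conversion rate of the gene was 0.991 in each library.

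**Figure D3:**
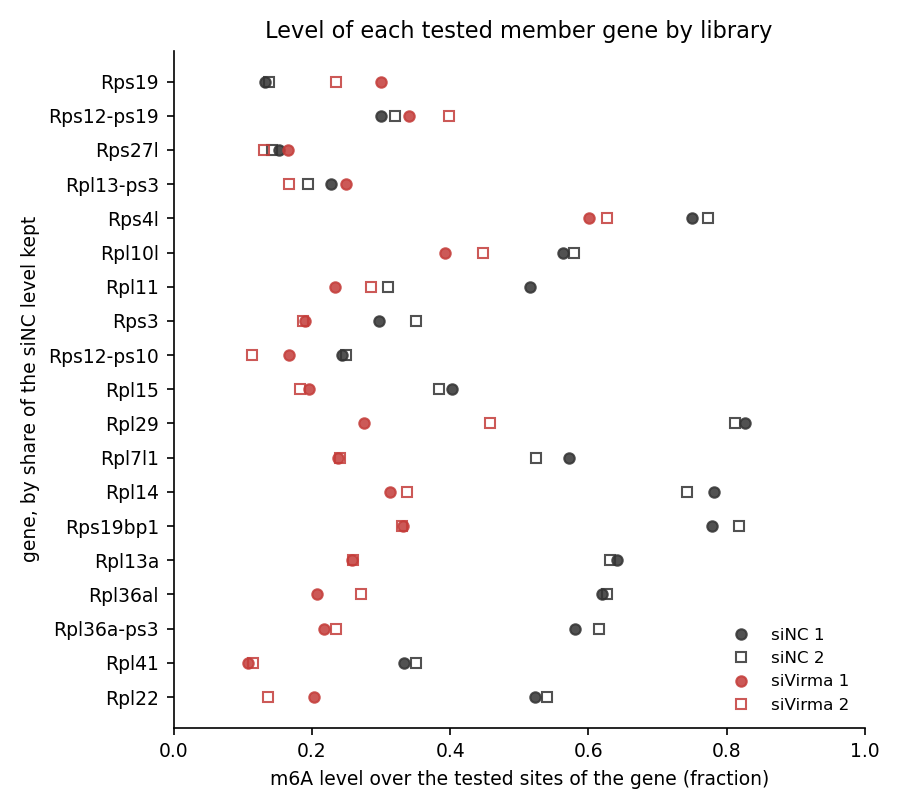
m6A level over the tested sites of each of the 19 tested member genes (x axis, fraction), with 1 mark per TBLC library, ordered by the share of the siNC level kept. Rpl22 at the bottom kept 31.9%, and Rps19 at the top lies at 0.132 and 0.137 in siNC and 0.3 and 0.235 in siVirma.

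The paralogs ranged from falls like those of the core genes to no change that passed. Rpl7l1 had levels of 0.572 and 0.524 in siNC and 0.238 and 0.241 in siVirma over 6 tested sites, and kept 43.7% (log2 odds change -1.94 ± 0.12 SE, edgeR adjusted p = 2.80e-19). All 6 of its tested sites fell. The one at 47086353 had 0.924 and 0.893 in siNC and 0.408 and 0.386 in siVirma, one of the 5 largest falls in level among member sites. The others of these 5 were at 80145134 of Rps19bp1 (which fell by 0.513), at 80144977 of the same gene (which fell by 0.506), at 106308680 of Rpl29 (which fell by 0.452) and at 120403514 of Rpl14 (which fell by 0.451).

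Rps4l and Rpl10l kept larger shares of their gene levels. Rps4l had 0.749 and 0.773 in siNC and 0.600 and 0.628 in siVirma over 4 sites on the plus strand of chromosome 6, and kept 80.6% (log2 odds change -1.01 ± 0.15 SE, edgeR adjusted p = 7.76e-08). Its site at 148257002 was almost fully methylated, with 0.983 and 0.991 in siNC and 0.873 and 0.835 in siVirma. At 148256154 the levels were 0.571 and 0.552 against 0.529 and 0.529, which did not pass (edgeR adjusted p = 0.449). That siVirma mean of 0.529 was above the 95th percentile of 0.344 among all tested sites with a siNC level of 0.5 to 0.6. Its site at 148256965, by contrast, kept 53.9%, with 0.391 and 0.470 against 0.224 and 0.240. In order of position the log2 odds changes of the 4 sites were -0.199, -1.32, -3.55 and -2.30. The median over all tested sites was -2.28, so the 4 sites were unlike each other on this scale.

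Rpl10l kept 73.6%, with gene levels of 0.563 and 0.579 in siNC and 0.393 and 0.448 in siVirma (edgeR adjusted p = 2.31e-05). Its 2 tested sites lie 28 nt apart on the minus strand of chromosome 12 and moved by different shares. At 66330484 the levels were 0.936 and 0.976 against 0.727 and 0.872, or 83.7% kept, and the call there was lost without siVirma replicate 1 (edgeR adjusted p = 0.0631). At 66330512 they were 0.308 and 0.333 against 0.159 and 0.133, or 45.6% kept. In log2 odds the order was the other way, with a change of -2.42 at 66330484 and -1.42 at 66330512.

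Rps27l, a p53-responsive paralog of Rps27, had 0.152 and 0.142 in siNC and 0.165 and 0.130 in siVirma from 269 to 387 reads. Its groups overlapped and it did not pass (log2 odds change 0.04 ± 0.23 SE, edgeR adjusted p = 0.868). Rps19bp1, counted here by its name, kept 41.4%, with 0.779 and 0.818 against 0.331 and 0.331. Its 8 sites lie within 208 nt on chromosome 15, and the 4 that were tested kept 37.7% to 45.1%.

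Of the copies, Rps12-ps19 on the minus strand of chromosome 11 was higher after knockdown. At its single site, 74962034, the levels were 0.299 and 0.320 in siNC and 0.340 and 0.398 in siVirma, from 304, 297, 412 and 364 reads. Both siVirma values were above both siNC values, by a log2 odds change of 0.37 ± 0.17 SE (edgeR adjusted p = 0.0331 for the gene). The siVirma mean of 0.369 was above the 95th percentile of 0.284 for tested sites with a siNC level of 0.3 to 0.4. The call was lost without siNC replicate 1 (adjusted p = 0.153) and without siVirma replicate 2 (0.331), and with limma on logit levels (0.133). For the site alone, over all tested sites, it was also lost without siNC replicate 2 (edgeR adjusted p = 0.0640). The deposited conversion rate of Rps12-ps19 was 0.984, 0.983, 0.982 and 0.980. The median over all genes with a called site was 0.983 in siNC and 0.988 in siVirma. The part of the conversion rate in the result was not tested.

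The other copy of the same parent, Rps12-ps10 on chromosome 2, had 0.244 and 0.25 in siNC and 0.167 and 0.114 in siVirma from 28 to 48 reads (kept 56.8%, edgeR adjusted p = 0.0970). Rpl13-ps3 had 0.228 and 0.194 against 0.25 and 0.167 from 36 to 57 reads, so its groups overlapped (kept 98.6%, edgeR adjusted p = 0.945). The parent Rpl13 had a site in both siNC libraries, at 0.302 and 0.308, and in siVirma 2 only, at 0.28 from 25 reads. Rps12 had no listed site. Whether reads of Rps12 and its copies were told apart in mapping is not stated.

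Rpl36a-ps3 was the most deeply read copy, with 900 to 1433 A+G reads over its 2 tested sites on the plus strand of chromosome 6. It had levels of 0.581 and 0.616 in siNC and 0.218 and 0.235 in siVirma and kept 37.8% (log2 odds change -2.35 ± 0.10 SE, edgeR adjusted p = 1.10e-25). Rpl36al, the autosomal paralog of Rpl36a on chromosome 12, had 0.620 and 0.627 against 0.208 and 0.271 and kept 38.4%. Rpl36a itself had no listed site.

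The 2 genes had their main sites at the same distance from each other. The sites of Rpl36a-ps3 at 136465832 and 136466080 and those of Rpl36al at 69229883 and 69229635 (minus strand) were both 248 nt apart in the direction of the transcript. This was the 1 equal spacing among 15 pairs of members with the same name stem. A match needs 2 sites in each member. Pairs that include a member with 1 site, such as Rps23 and Rps23-ps2 or those of Rpl22, could not match. The 15 pairs therefore do not show how rare an equal spacing is. At the 5′ site Rpl36a-ps3 had 0.699, 0.718, 0.248 and 0.288 in siNC 1, siNC 2, siVirma 1 and siVirma 2, and Rpl36al had 0.711, 0.744, 0.241 and 0.319. At the 3′ site the levels were 0.451, 0.499, 0.179 and 0.162 for Rpl36a-ps3 and 0.481, 0.5, 0.161 and 0.213 for Rpl36al. The differences between the genes, Rpl36a-ps3 minus Rpl36al, ran from -0.0508 to 0.0175 in the 8 comparisons. None passed Fisher's exact test on the reads of a single library (two-sided, smallest p = 0.363, adjusted p = 1 over the 8), a test that compares reads and not replicates. Rpl36al had between 0.0814 and 0.153 of the reads of Rpl36a-ps3 at these sites. Reads of near-identical copies may have been split between them in mapping, so the share that each gene gave is uncertain.

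**Figure D4:**
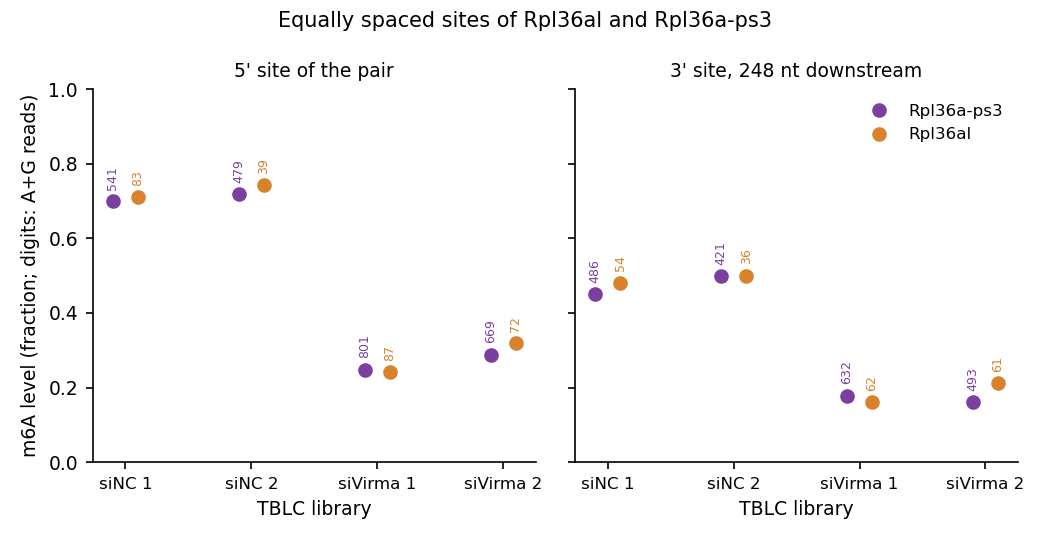
m6A level (y axis, fraction) at the equally spaced sites of Rpl36a-ps3 and Rpl36al in the 4 TBLC libraries (x axis), with the 5′ site on the left and the site 248 nt downstream on the right. The small digits give the A+G reads, and at the 5′ site both genes move from 0.699 to 0.744 in siNC to 0.241 to 0.319 in siVirma.

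The 20 copies belong to 16 parent names, of which 6 had a listed site themselves (Rpl13, Rpl21, Rpl22, Rps15a, Rps23 and Rpsa), beside the 42.9% of protein-coding symbols under the naming rule that had one. Rpl10a and Rps12 had 2 listed copies each and Rps2 had 3, namely Rps2-ps7, Rps2-ps9 and Rps2-ps12, without a site in the parent. Whether reads of near-identical parents and copies were mapped uniquely is not stated. A site listed for a copy may therefore hold reads of its parent, and the reverse. Rps23 and Rps23-ps2 had near-equal values, at 0.1 from 50 reads and 0.104 from 48 reads, both in siNC 1 only. Both had 5 A reads, the list minimum, so any barely called sites at this depth would look alike. Their deposited gene coverage in siNC 1 was also close, at 499 and 475. Whether the 2 share reads was not tested. Rpl21 had 0.217, 0.157 and 0.111 at 146772796 in siNC 1, siNC 2 and siVirma 1, while Rpl21-ps7 appeared in siVirma 2 only, at 0.312 from 16 reads. Rps15a and Rps15a-ps7 were unlike each other, with 5 sites at 0.122 to 0.286 in the parent and 2 adjacent positions at 0.102 to 0.115 in the copy. Rpsa, the laminin-binding protein of the small subunit, had 0.197 and 0.323 in siNC and none in siVirma, and Rpsa-ps10 had 0.119 in siVirma 1 only.

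The change in members without and with the suffix was compared over their tested sites, and the size of the difference depended on how sites were weighted. The 31 sites without it had levels of 0.514 and 0.517 in siNC and 0.251 and 0.251 in siVirma, and the 5 sites with it had 0.498 and 0.526 against 0.243 and 0.267. With reads summed, the difference of the log2 odds changes, without minus with, was -0.05 (exact permutation p = 0.667 over libraries, smallest possible 0.333). Most reads of the copies come from Rpl36a-ps3. With the median of the site levels in place of summed reads, which counts each site equally, the difference was -1.15 (exact permutation p = 0.333), and with a minimum of 50 reads it was 0.03. With Rps4l counted among the copies and Rps19bp1 left out, an alternative chosen after seeing the data, it was -0.25 (exact permutation p = 0.333).

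Coverage at the sites was uneven along the member genes. The A+G reads of a member site were a median 0.451, 0.705, 0.669 and 0.477 of the deposited coverage of its gene in siNC 1, siNC 2, siVirma 1 and siVirma 2. Over all called sites the medians were 0.957, 0.956, 1.01 and 1.01. Core genes had the lowest medians, 0.269 to 0.465, and paralogs had 0.830 to 1.01. A ratio under 0.5 was seen at 59 of 109, 44 of 102, 21 of 52 and 27 of 53 member sites, or 40.4% to 54.1%, against 11.9% to 13.9% of all sites. The extremes were Rpl4, with 17 reads at a site where the gene coverage was 2144 (ratio 0.00793), and Rpl7l1, with 597 reads at 47086074 (ratio 5.58). Rpl41 at 128384184 had ratios of 3.23 to 3.72. The gene coverage of members was high, with medians of 166 to 226 against 36.5 to 42.9 over all genes.

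**Figure D5:**
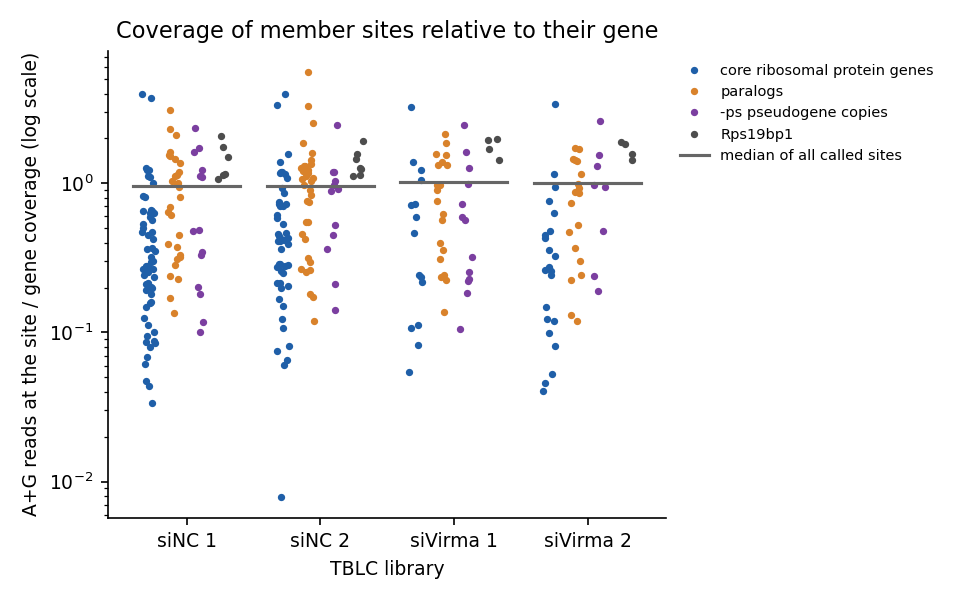
A+G reads at each called member site divided by the deposited coverage of its gene (y axis, log scale), by TBLC library (x axis) and class, with horizontal lines at the median of all called sites. The core genes reach far below the lines, to 0.00793 for Rpl4, while Rps19bp1 lies above them in each library.

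Deposited gene coverage was called as changed in members at about the shares seen over all genes. It was compared with limma on log2 values over 6787 genes after a median shift of 0.17 (log2, higher in siVirma) was removed. Of 19 members tested 3 were lower (12.4% of all genes were), 1 was higher (9.15% of all genes were) and 15 did not pass. Leaving out siNC replicate 1 or siNC replicate 2 changed which members passed, and a copy was then among the lower ones. With all libraries Rpl10l, Rpl15 and Rpl7l1 were lower, by 0.825-fold, 0.855-fold and 0.863-fold (limma adjusted p = 0.0168, 0.0342 and 0.0235). Before centring their coverage overlapped between groups, for example 110 and 107 in siNC and 112 and 98.9 in siVirma for Rpl7l1, and without centring 0 members were lower (limma, 0 at an unadjusted p under 0.05). Each of these 3 calls was also lost without siNC replicate 2 and without siVirma replicate 1 (limma adjusted p from 0.0692 to 0.195). Rpl36a-ps3 was higher, with 440.0 and 405 in siNC and 635 and 510 in siVirma (1.20-fold after centring, limma adjusted p = 0.0193), a call lost without siNC replicate 2 (limma adjusted p = 0.117) and without siVirma replicate 1 (0.0986). Without siVirma replicate 1 no member passed in either direction, with 6 lower and 1 higher at an unadjusted p under 0.05.

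Fewer cells of a type and less RNA per cell cannot be told apart in such bulk samples. Of 10 fibroblast markers, which could mark feeder cells, 6 had coverage in all 4 libraries, and 5 of the 6 passed as higher in siVirma (limma, adjusted p under 0.05). Their summed coverage was 309 and 289 in siNC against 552 and 445 in siVirma. The genes were Col1a1, Col1a2, Col6a1, Col6a2, Thy1 and Twist2. Summed coverage of 8 naive pluripotency markers was 1547 and 1497 in siNC against 1717 and 1398 in siVirma, and after centring 2 of the 8 passed as lower and 0 as higher (limma, median log2 change -0.16). The part of these shifts in the members' values was not tested.

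Genes that work with the ribosomal proteins were read from further lists. Of 31 genes with other TOP transcripts, such as translation factors, 24 had a listed site, and 12 of the 14 tested were lower in siVirma and 0 higher (edgeR, adjusted p under 0.05). The median kept was 39%. Eef1a1, which brings aminoacyl-tRNA to the ribosome, went from 0.582 ± 0.0150 to 0.179 ± 0.000705 and Eef2, which moves the ribosome along, from 0.598 ± 0.00240 to 0.233 ± 0.000380 (SD, n = 2).

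Mitochondrial ribosomal proteins, taken as all 68 listed symbols that start with Mrpl or Mrps and a digit, were lower in 49 of 52 tested genes with a median of 39.9% kept. Mrpl12 went from 0.801 ± 0.0242 to 0.305 ± 0.0165 and Mrps34 from 0.553 ± 0.00749 to 0.169 ± 0.0118 (SD, n = 2). Ribosome biogenesis factors were listed in 54 of 60 cases and lower in 38 of 40 tested, with a median of 41.1% kept. Nip7 and Rsl1d1, both pre-ribosome factors, went from 0.620 ± 0.00412 to 0.251 ± 0.00317 and from 0.539 ± 0.0174 to 0.205 ± 0.00574 (SD, n = 2). Rps6k kinases, which share the start of the name but were left out of the members, were lower in 4 of 4 tested genes (41.6% kept), among them Rps6ka1 and Rps6kc1. These shares stand beside 93.8% lower and a median of 44.9% kept over all tested genes.

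In EPSC 30 of the 143 member sites had a row at the same chromosome, position and strand (21.0%, against 19% of all TBLC sites), in 18 genes. They were 14 core, 12 paralog and 3 copy sites and 1 site of Rps19bp1. Values are pooled over the 2 libraries of a group, so they carry no SD, and Fisher's exact test on the pooled reads compares those pools and not the conditions. Of the 13 rows with at least 20 reads in both groups 6 were higher and 7 lower in sgGata6, with a median difference of -0.00334 against -0.00906 over all 10185 rows tested. At an adjusted p under 0.05 there were 0 member rows in either direction (0.255% of all rows were lower and 0.0196% higher), and 0 at an unadjusted p under 0.05.

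The EPSC and TBLC tables were made separately, and levels across them were not tested. Rpl41 had 0.366 from 232 reads in sgCtrl and 0.363 from 303 reads in sgGata6 at 128384184, where siNC had 0.334 and 0.351. Rpl36a-ps3 had 0.791 and 0.766 at its 5′ site and 0.373 and 0.320 at its 3′ site in sgCtrl and sgGata6. Rpl36al had no EPSC row. Rpl13a at 44775358 had the lowest p, with 46 A reads of 68 in sgCtrl (0.676) and 70 of 131 in sgGata6 (0.534, Fisher's exact p = 0.0688, adjusted p = 0.476).

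The tested core sites also included Rpl15 at 4200730, with 0.357 and 0.192 in sgCtrl and sgGata6, and Rpl22 at 152418207, with 0.210 and 0.302. Rpl10l at 66330246 had 0.163 and 0.233, at 66330308 0.143 and 0.231, and Rpl7l1 at 47086074 had 0.167 and 0.280. Depths were 25 to 78 reads here, and neither direction was shared by all of them.

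Rps12-ps19, the copy that was higher after Virma knockdown, had 4 A reads of 35 in sgCtrl (0.114, 95% Wilson interval 0.0454 to 0.260) and 6 of 37 in sgGata6 (0.162, 0.0765 to 0.311). Its TBLC siNC levels of 0.299 and 0.320 lay above the sgCtrl interval. Of these, 0.299 lay inside the sgGata6 interval and 0.320 above it, and the difference between the tables was not tested. Such intervals reflect the counting of reads and nothing else, as the reads need not be independent molecules. At the almost fully methylated site of Rps4l all reads were A, 13 of 13 in sgCtrl and 17 of 17 in sgGata6. Rps3 at 99128117 had 0 A reads of 12 in sgCtrl, where the upper 95% Wilson bound is 0.242, and 13 of 78 in sgGata6.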

How the data were processed

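Members, classes and gene lists were chosen with earlier results of these data known. The labels' protocols describe GLORI libraries from mRNA. Build mm39 comes from the submitters' processing notes, with aligner and site caller not given in the sources used here. For a TBLC library the deposited list gives counts of A and A+G reads. The level and the conversion rate per gene are each a fraction, per the file headers. The deposited p-value of a site served only as a filter. The gene coverage signal is the authors', per the file headers, and its computation is not stated. Listed sites have 15 or more A+G reads, 5 or more A reads and a level from 0.1, as seen from the values. The deposited EPSC counts, and the coverage in A+G reads beside them, are pooled per group, so Fisher's exact test replaced the planned edgeR test.

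Sites with 20 or more A+G reads in every TBLC list were tested with edgeR 4.0.16 (R 4.3.3) for a group effect on A against G reads, each library having its own term, and genes likewise on summed reads. An adjusted p under 0.05 (Benjamini-Hochberg over all features) was called. The kept share is the siVirma mean over the siNC mean. Gene coverage was tested with limma 3.58.1 on log2 values centred on the median gene. Scripts were tested on simulated data. Site numbers were compared by exact permutation over libraries. Replicates differed beyond counting noise in coverage (chi-square per site 1.21 in siNC and 1.12 in siVirma) and were counted singly. For levels the same check gave 1.06 over 13172 sites in siNC and 1.05 over 7492 sites in siVirma. Both were beyond counting noise (chi-square p = 4.78e-07 and 0.00307). At the tested sites, which had to be called in every TBLC library, it was 1.03 in siNC and 0.902 in siVirma. The former was beyond counting noise (chi-square p = 0.000585). The latter was less than counting noise alone would give, so the siVirma replicates were more alike there than counted reads would be. The cause was not tested. Named members were those with a tested site, the 10 with the most sites, parents and copies listed together, sites that were higher or among the 5 largest falls, and EPSC rows, and from other lists up to 2 genes per direction with the lowest p. Others are named after their values were seen. Alternatives were other read minimums, no further minimum, limma on logit levels (0.5 added to A and G reads), uncentred coverage, a coverage minimum of 10, a replicate block, a stricter deposited p, and leaving out each library. Tables and plots were made with Python 3.11.15 (numpy 2.4.6, pandas 2.3.3, scipy 1.17.1, matplotlib 3.10.9). No mm39 genome was used here, so exons, UTRs and site sequences are not given.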

Additional observations from a re-analysis of the deposited data

How the results depend on the processing

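The counts of lower member sites and genes, and the falls in called sites of all members and of members without the suffix, stayed within 1.5 times under each alternative. Higher sites were 1 in place of 2 with a minimum of 50 reads and with limma on logit levels, and 0 to 1 without 1 library. Higher genes were likewise 1, 1, and 0 to 1. Members with lower coverage were 0 without centring and 0 to 3 without 1 library, and those with higher coverage 0 to 3. The copies' site change ran from -38.5% to 0% and the difference between members without and with the suffix from -0.127 to 0.0831 without 1 library, and the latter was 0.0326 with a minimum of 50 reads.

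The replicate numbers mark no shared batch in the labels, and deviations of same-numbered libraries had a correlation of 0.00844 over 20414 sites. With the replicate block 27 sites and 13 genes were lower and 2 of each higher, and 4 members had lower coverage, with Rpl13-ps3 added. The sign of unpassed changes turned for Rpl13-ps3 with the block (0.00733 at the site, 0.00753 for the gene), for the gene level of Rps27l with limma (-0.00289), and without centring for the coverage of Rpl11 (0.0848), Rpl22 (0.0772), Rpl29 (0.117) and Rps3 (0.102).

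Leaving out 1 library also turned the sign of changes that had not passed. For site levels the log2 odds change then ran from -0.443 to 0.285 for Rpl13-ps3, from -0.265 to 0.0568 for Rps3 at 99132862 and from -0.201 to 0.902 for Rps27l at 66853374. For gene levels it ran from -0.442 to 0.285 for Rpl13-ps3 and from -0.201 to 0.201 for Rps27l. For coverage the log2 change ran from -0.220 to 0.0492 for Rpl11, -0.0281 to 0.0513 for Rpl13a, -0.294 to 0.187 for Rpl29, -0.0290 to 0.257 for Rpl41, -0.0224 to 0.110 for Rps12-ps10, -0.0384 to 0.199 for Rps19 and -0.0706 to 0.0832 for Rps4l. The causes were not tested. The sites of Rps19, Rpl11 and Rps12-ps10 had 28 to 53 reads. Where 1 library was left out, the lone library of its group was taken to vary like the others.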
